A study of Mus musculus with 6 samples.

Results

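Gene expression in Nanos2-/- male gonads was set against that in Nanos2+/- male gonads at E14.5, on 4 of the 6 one-colour Agilent arrays of the series, chosen by genotype. The other 2 arrays, from Nanos2-/- gonads carrying a transgene for FLAG-tagged NANOS2 that lacks its N-terminal residues, entered only the estimate of the spread. Total RNA from whole gonads was labelled with Cy3, and each genotype was measured on biological duplicates, so n = 2 in every comparison below. Both genotypes carried at least 1 null allele of Nanos2 on a mixed ICR and N2 background, and the controls were heterozygous, not wild type. The labels do not say whether an RNA came from 1 embryo or from several. A difference in a whole gonad can come from fewer cells of a type or from less RNA per cell, and these cannot be told apart here.

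NANOS2 is an RNA-binding protein of male fetal germ cells. It recruits the CCR4-NOT deadenylase to target mRNAs, holds germ cells back from meiosis and promotes the male pathway, in which germ cells leave the cycle, methylate their DNA anew and build the piRNA machinery against transposons. The supporting cells of the fetal testis include Sertoli cells, which enclose germ cells in cords, steroid-producing Leydig cells, peritubular myoid cells and endothelium.

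The Nanos2 probe was examined first. Its log2 signal was 9.42 and 10.78 on the Nanos2+/- arrays and stood at the floor of 2.32 on both Nanos2-/- arrays, where it was below the detection call. Nanos2 was therefore at least 89.7-fold lower in Nanos2-/-, and the labels hold on all 4 arrays. Signals were compared for 25266 probes that were well above background on all 4 arrays, of which 17726 carried a gene name, and each of 12541 genes was represented by its brightest probe. All values below are log2 of scaled signal, and a difference is the mean of Nanos2-/- minus the mean of Nanos2+/-.

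The arrays limit how firmly these differences can be worded. Both Nanos2+/- arrays lay on 1 slide and both Nanos2-/- arrays on another, so slide and genotype cannot be told apart. The Nanos2+/- duplicates differed from each other by a median of 0.32 and the Nanos2-/- duplicates by 0.19, and 824 probes lay 2-fold or more apart between the Nanos2+/- duplicates against 378 between the Nanos2-/- duplicates. Replicate 2 of Nanos2+/- was brighter than replicate 1 for 10061 of the 12541 genes. The median difference over all genes was -0.07, with 4772 genes higher and 7769 lower in Nanos2-/-. The share of genes that were higher, 38.1%, was 48.4% with quantile normalization and 85.9% with normexp background correction, so the balance of higher and lower genes depended on the scaling. With 2 arrays against 2, an exact two-sided permutation test of a single gene cannot go below p = 0.333.

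Only 1 probe passed the limma test at an adjusted p below 0.05 with a 2-fold difference, 0.00396% of the probes tested. This was probe A_51_P334979, which has no gene name in the annotation used here. It was at 9.05 and 8.98 in Nanos2+/- and at 5.60 and 5.19 in Nanos2-/-, a difference of -3.62 (SE 0.203, adjusted p = 0.00105). It lost the call without Nanos2+/- replicate 1 (difference -3.59, adjusted p = 0.0698), with scaling to the 75th percentile (-3.60, adjusted p = 0.1), with no detection filter (-3.62, adjusted p = 0.129) and with normexp background correction (-1.87, adjusted p = 0.491). Without Nanos2+/- replicate 2, 19 probes passed, and without Nanos2-/- replicate 1, 15 passed. At an unadjusted p below 0.05 with the same 2-fold limit, 107 probes were higher (0.423%) and 217 lower (0.859%). In gene terms these were 55 genes higher (0.439% of genes tested) and 150 lower (1.2%). Without Nanos2+/- replicate 2 the probe counts were 297 and 424, and without Nanos2-/- replicate 1 the higher count was 267. Both arrays of one genotype lay above both of the other for many more genes, with 1351 higher (10.8%) and 3075 lower (24.5%) in Nanos2-/-. These shares are the background against which the gene lists are read. The named genes below did not pass the adjusted test unless stated, and their values are given as measured.

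Among the lists of gonadal functions and cell types, meiotic genes stood highest in Nanos2-/- and genes of male germ cell differentiation and of the motile cilium lowest. Of 31 genes of meiotic entry and early prophase, 19 were measured, with 14 higher, 5 lower and a median difference of 0.20. Arrays did not overlap for 7 of the higher and 2 of the lower genes, beside 10.8% higher and 24.5% lower over all genes. The male list held 23 genes, 12 measured, with 1 higher, 11 lower and a median of -0.44. Lists and their members were chosen with earlier results of these data known. Their counts beside the shares over all genes are therefore descriptions only. The spread of every list is shown in the plot of differences by gene list.

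**Figure D1:**
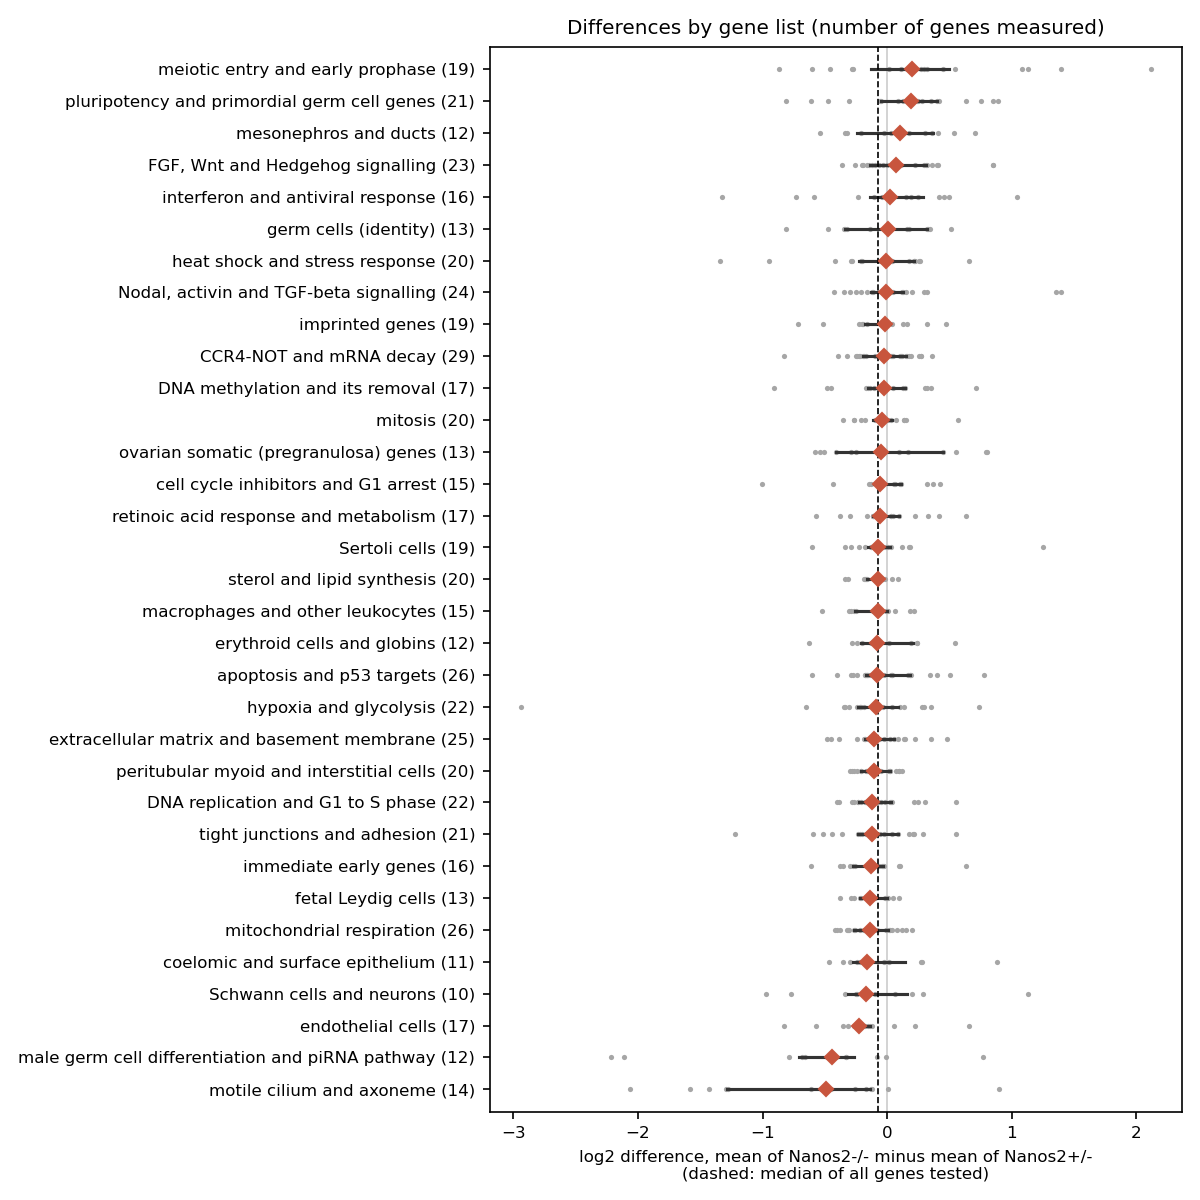
Log2 differences (Nanos2-/- minus Nanos2+/-, x axis) of the measured genes of 33 lists (y axis, number of genes in brackets), ordered by median. Grey points are genes, bars the middle 50% of genes, red diamonds the medians, and the dashed line the median of all genes at -0.07. The medians run from -0.49 for the motile cilium to 0.20 for meiotic entry, and most cell type lists lie near the dashed line.

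The promoters of 3 meiotic genes that were higher in Nanos2-/- and of 1 male germ cell gene that was lower are printed here because the results turn on these genes. Each run holds 300 bases from RefSeq on build GRCm38.p6, from 250 bases before the gene's start to 50 after it, read 5' to 3' on the gene's strand. Capitals mark matches on either strand to AGGTCA, the core site of retinoic acid receptors, to the E-box CACGTG, or to CNCCTCAG, a motif known from promoters that STRA8 binds in meiotic cells.
Stra8, chr6:34920698-34920997, plus strand: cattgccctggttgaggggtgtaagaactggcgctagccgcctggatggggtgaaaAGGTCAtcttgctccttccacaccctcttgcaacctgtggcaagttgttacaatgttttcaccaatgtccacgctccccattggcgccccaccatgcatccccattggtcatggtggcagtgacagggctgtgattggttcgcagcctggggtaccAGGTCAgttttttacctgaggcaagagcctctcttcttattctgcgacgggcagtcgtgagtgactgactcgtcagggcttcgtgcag
Sycp1, chr3:102936051-102936350, minus strand: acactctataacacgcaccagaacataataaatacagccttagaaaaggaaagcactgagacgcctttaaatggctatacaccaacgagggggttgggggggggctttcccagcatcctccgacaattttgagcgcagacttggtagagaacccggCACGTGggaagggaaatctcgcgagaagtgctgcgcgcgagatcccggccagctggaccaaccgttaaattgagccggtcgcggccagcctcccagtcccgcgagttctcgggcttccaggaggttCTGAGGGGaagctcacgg
Taf7l, chrX:134476441-134476740, minus strand: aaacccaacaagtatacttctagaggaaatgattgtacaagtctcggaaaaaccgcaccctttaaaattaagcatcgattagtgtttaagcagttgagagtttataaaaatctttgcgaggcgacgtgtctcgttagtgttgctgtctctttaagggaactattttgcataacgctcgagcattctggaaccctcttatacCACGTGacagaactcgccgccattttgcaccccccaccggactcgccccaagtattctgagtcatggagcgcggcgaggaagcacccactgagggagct
Piwil1, chr5:128735996-128736295, plus strand: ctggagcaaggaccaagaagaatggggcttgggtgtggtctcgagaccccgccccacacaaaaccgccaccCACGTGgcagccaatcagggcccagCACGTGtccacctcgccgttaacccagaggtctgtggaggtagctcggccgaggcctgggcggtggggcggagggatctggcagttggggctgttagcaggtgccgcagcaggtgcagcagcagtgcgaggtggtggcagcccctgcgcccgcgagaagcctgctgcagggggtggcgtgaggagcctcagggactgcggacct
Stra8 held AGGTCA 2 times, beginning 194 and 38 bases before its start, and neither of the other motifs. Sycp1 held CACGTG 94 bases before its start and CNCCTCAG 32 bases after it, Taf7l held CACGTG 49 bases before its start, and Piwil1 held CACGTG 179 and 154 bases before its start. Over all 32851 promoters in the table, 16.3% held AGGTCA, 7.15% CACGTG and 7.94% CNCCTCAG, and over the 12862 promoters of genes tested these shares were 12.9%, 9.66% and 9.1%. Among 19 promoters of 17 measured meiotic genes, 42.1% held CACGTG and 36.8% CNCCTCAG, and among 18 promoters of 11 measured male germ cell genes these were 38.9% and 22.2%. For 20 promoters of 15 measured pluripotency and primordial germ cell (PGC) genes, both shares were 5%. AGGTCA was held by 21.1% of the meiotic, 5.56% of the male germ cell and 20% of the pluripotency and PGC promoters. A match describes the letters in this window only.

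Stra8, which germ cells switch on in response to retinoic acid as they enter meiosis, had the largest difference of the meiotic list. It was at 10.19 and 11.48 in Nanos2+/- and at 12.46 and 13.44 in Nanos2-/-, a difference of 2.11 (SE 0.552, adjusted p = 0.33). The genotypes did not overlap, but the duplicates of each lay about as far apart as the nearer arrays of the genotypes. Sycp1, the transverse filament of the synaptonemal complex, was at 9.66 and 10.33 against 11.01 and 11.24, a difference of 1.13 (SE 0.249, adjusted p = 0.282). Taf7l, a germ cell variant of a TFIID subunit, was at 11.04 and 11.72 against 12.35 and 12.58, a difference of 1.08 (SE 0.311, adjusted p = 0.375). A second probe of Taf7l differed by 1.24. All 3 genes were higher on each Nanos2-/- array than on either Nanos2+/- array, and all 3 were lowest in Nanos2+/- replicate 1.

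The rest of the meiotic list was mixed. Sohlh2, a transcription factor of early germ cell differentiation, was at 7.56 and 9.48 in Nanos2+/- and at 9.45 and 10.38 in Nanos2-/-, so the genotypes overlapped. Msh4, a recombination factor, differed by 0.55 without overlap. Tex12, a central element protein of the synaptonemal complex, went the other way, at 11.43 and 11.39 against 10.44 and 10.64, a difference of -0.87 (SE 0.196, adjusted p = 0.288). Its second probe differed by -0.86. Stag3, a meiotic cohesin subunit, was also lower, by -0.60. Sycp3 (0.20), Syce2 (0.01), Rec8 (0.45) and Hormad1 (-0.28), which build the meiotic chromosome axis and synaptonemal complex, differed by less than 2-fold with overlapping arrays. Per array, the list's median deviation was -0.24 and -0.04 in Nanos2+/- and -0.06 and 0.19 in Nanos2-/-, so as a whole the list overlapped between genotypes. With normexp background correction all genes together stood 0.72 higher in Nanos2-/- and the meiotic list 0.53, so relative to all genes its direction turned, while under the 75th percentile and quantile scaling it was 0.23 in both.

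**Figure D2:**
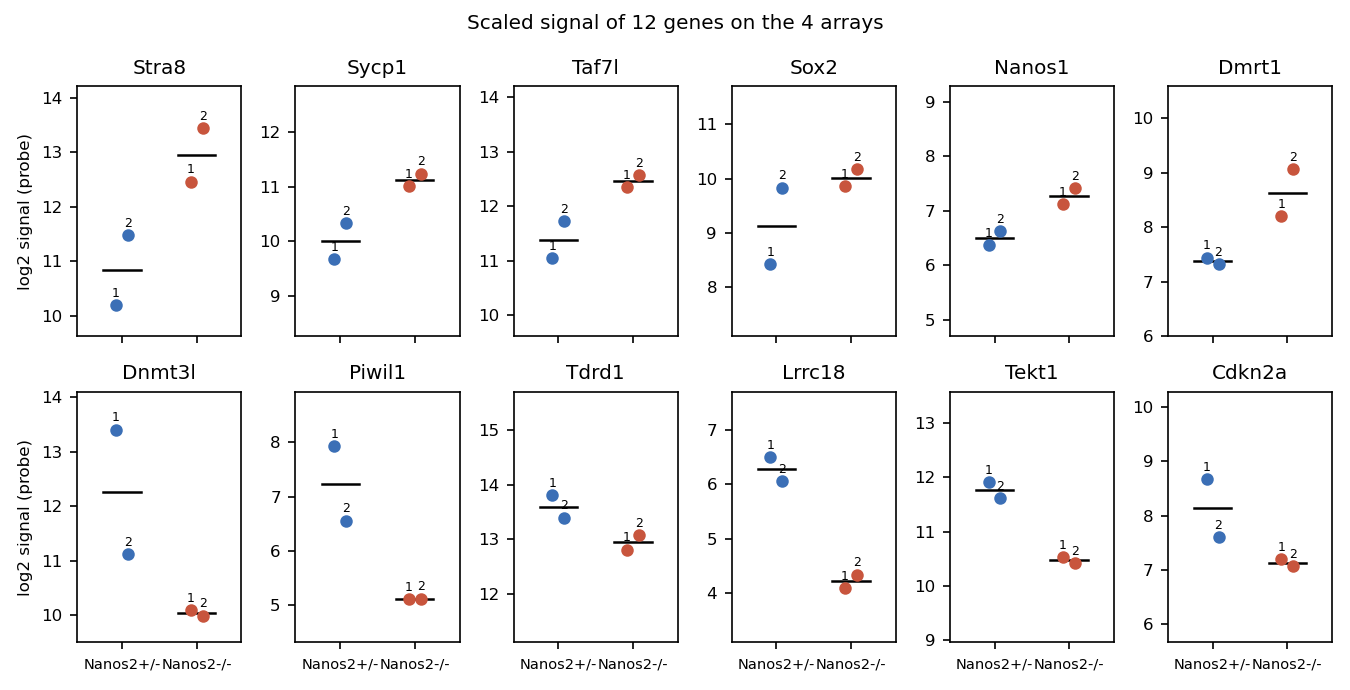
Log2 scaled signal (y axis, the same span of values in each panel) of 12 genes on the 4 arrays, by genotype (x axis). Points are arrays marked with their replicate number and lines are means of 2. Stra8, Sycp1 and Taf7l were higher and Dnmt3l, Piwil1 and Lrrc18 lower on both Nanos2-/- arrays, and the Nanos2+/- duplicates lay far apart for Dnmt3l, at 13.40 and 11.12.

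Male germ cell genes were lower. Dnmt3l, the cofactor of de novo DNA methylation in fetal male germ cells, was at 13.40 and 11.12 in Nanos2+/- and at 10.09 and 9.99 in Nanos2-/-, a difference of -2.22 (SE 0.598, adjusted p = 0.343). Piwil1, a PIWI protein that binds piRNAs, was at 7.92 and 6.56 against 5.12 and 5.13, a difference of -2.11 (SE 0.392, adjusted p = 0.264). Without Nanos2+/- replicate 2 both passed the test, at -3.36 and -2.80, and without replicate 1 neither did, at -1.08 and -1.43 (limma adjusted p = 0.357 for both). Tdrd1, a Tudor protein of the piRNA granule, was at 13.80 and 13.40 against 12.80 and 13.07, a difference of -0.66 (SE 0.221, adjusted p = 0.444). A second, dimmer probe of Tdrd1 was at 8.73 and 7.81 against 7.73 and 8.04, a difference of -0.38 with overlapping genotypes.

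Other piRNA genes followed with smaller differences and arrays that did not overlap. Henmt1, which methylates the ends of piRNAs, differed by -0.79, the RNA export factor Nxf2 by -0.68 and Mael, a piRNA pathway protein, by -0.48. Henmt1 was at 8.72 and 7.84 in Nanos2+/- and at 7.45 and 7.53 in Nanos2-/-. Nxf2 was at 12.09 and 11.32 against 10.95 and 11.08. For Henmt1 and Nxf2 the Nanos2+/- duplicates lay farther apart than the nearer arrays of the genotypes. Piwil2 (-0.08) and Asz1 (-0.01), also of the piRNA machinery, overlapped between genotypes. Across the list 9 of 12 genes were lower and 1 higher without overlap, against 24.5% lower and 10.8% higher over all genes. The list holds Dnmt3l, Piwil1 and Tdrd1, which the study plotted from these arrays as lower, so this count is no independent support. The list's median deviation was 0.32 and 0.06 on the Nanos2+/- arrays and -0.33 and -0.12 on the Nanos2-/- arrays, which do not overlap. It also stood below the median of all genes under each alternative scaling, at -0.32 with quantile normalization. Against Nanos2+/- replicate 1 alone the list's median was -0.51, where all genes stood at 0.07. Against replicate 2 alone it was -0.32, where all genes stood at -0.21. The list's distance from all genes was thus much smaller against replicate 2.

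Nanos1, a paralogue of Nanos2, was the 1 higher gene of this list. Its brightest probe was at 6.37 and 6.62 in Nanos2+/- and at 7.12 and 7.41 in Nanos2-/-, a difference of 0.77 (SE 0.273, adjusted p = 0.474). A second Nanos1 probe fell below the detection call on both Nanos2+/- arrays, at 2.78 and 2.32, and was detected at 4.64 and 5.0 in Nanos2-/-. Both probes were higher on each Nanos2-/- array. The second enters only through its detection in Nanos2-/-, so it gives a bound and no independent support for the first. Nanos3, which germ cells need earlier for survival, was at 9.82 and 10.96 against 10.70 and 11.11 and overlapped.

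Pluripotency and PGC genes, which fetal male germ cells normally shut down, had a median difference of 0.19 over 21 measured of 24, with 15 higher and 6 lower. This value rested on the heterozygous duplicates. The list's median deviation was -0.51 and 0.28 in Nanos2+/- and -0.03 and 0.21 in Nanos2-/-. Against Nanos2+/- replicate 1 alone, the Nanos2-/- mean was 0.71 higher in the median, and against replicate 2 alone it differed by -0.18, where all genes differed by -0.21. Arrays did not overlap for 3 higher and 3 lower genes of the list, beside 10.8% and 24.5% of all genes.

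Sox2, a pluripotency transcription factor, was at 8.43 and 9.83 in Nanos2+/- and at 9.86 and 10.18 in Nanos2-/-, a difference of 0.89 (SE 0.392, adjusted p = 0.596) and the genotypes were barely apart. Tfcp2l1, another factor of the naive network, was at 6.24 and 6.61 against 7.26 and 7.30, a difference of 0.85 (SE 0.23, adjusted p = 0.343), but a second probe of it differed by -0.39. Pou5f1 was at 10.62 and 12.43 against 10.53 and 12.39, so it followed the replicate number and not the genotype. Dppa5a was at 15.57 and 16.86 against 16.83 and 16.86, and Dppa3 was at 14.86 and 15.95 against 15.45 and 15.84. Both are PGC genes, and without Nanos2+/- replicate 1 the differences of these probes turned to -0.01 and -0.30. A second, dimmer probe of Dppa5a was at 12.74 and 14.10 against 14.20 and 14.31, a difference of 0.84 without overlap. Dppa4 (-0.61), Fbxo15 (-0.81) and Klf4 (-0.48), of the same list, were lower without overlap.

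Germ cell identity genes as a group did not follow either direction, with 7 of 13 measured genes higher, 6 lower and a median of 0.01. Ddx4, the germ cell helicase, was at 14.17 and 14.29 in Nanos2+/- and at 13.97 and 14.22 in Nanos2-/-. Dazl, an RNA-binding protein of germ cells, was at 12.80 and 13.74 against 13.46 and 13.78. Both overlapped between genotypes. Dnd1, a partner protein of NANOS2 in germ cells, was the exception, at 13.54 and 13.76 against 12.75 and 12.92, a difference of -0.81 (SE 0.19, adjusted p = 0.288). Ddx25 (-0.47) and Slc25a31 (-0.35), a testis helicase and a testis ADP/ATP carrier, were lower without overlap. The summed signal of the 13 genes was 98742 and 125513 in Nanos2+/- and 86863 and 106788 in Nanos2-/-, overlapping ranges.

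**Figure D3:**
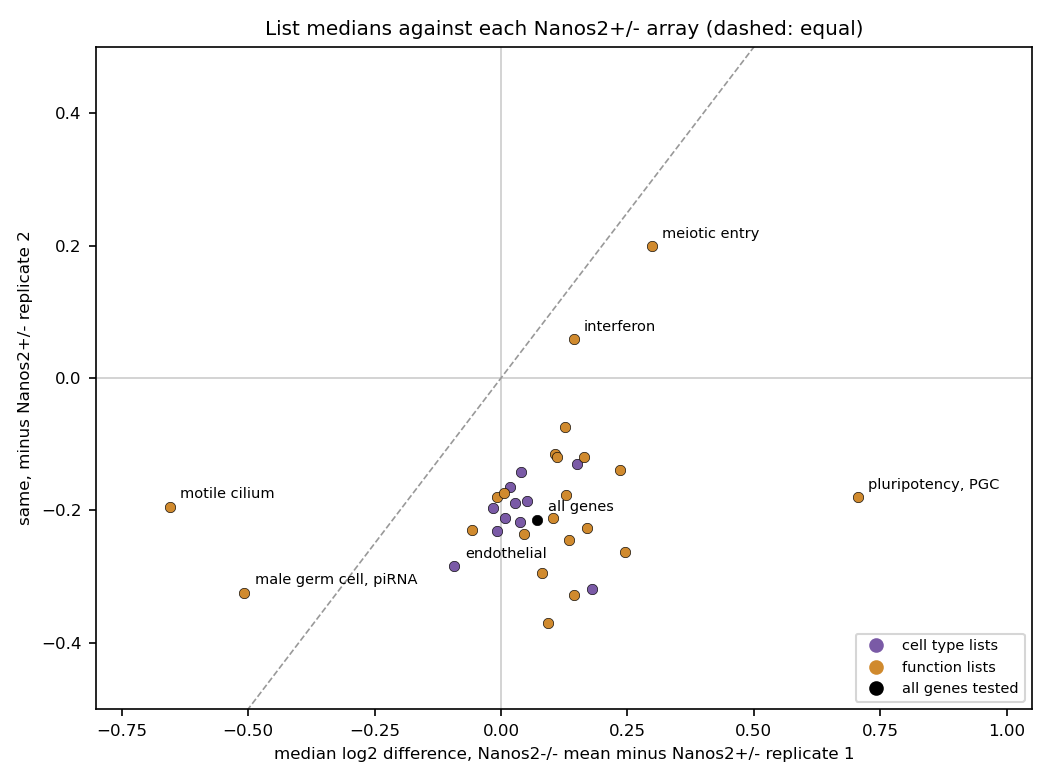
Median log2 difference of each list when the Nanos2-/- mean is set against Nanos2+/- replicate 1 (x axis) or replicate 2 (y axis). Points are lists and the black point is all genes, at 0.07 and -0.21. Meiotic entry was above all genes against both arrays (0.30 and 0.20), the male germ cell list below against both (-0.51 and -0.32), while the pluripotency and cilium lists stood apart from all genes only against replicate 1.

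Genes of the motile cilium and its axoneme, the microtubule core also used by the sperm tail, had the lowest median, -0.49, with 12 of 14 measured genes lower. Lrrc18, a leucine-rich repeat gene put in this list, was at 6.50 and 6.06 in Nanos2+/- and at 4.09 and 4.34 in Nanos2-/-, a difference of -2.07 (SE 0.25, adjusted p = 0.188). Lrrc18 passed when only the 4 arrays were fitted (limma adjusted p = 0.042) and with the replicate block (0.0482). Tekt1, a tektin of axonemal microtubules, was at 11.91 and 11.62 against 10.53 and 10.42, a difference of -1.29 (SE 0.23, adjusted p = 0.261). A second probe of Tekt1 differed by -1.25. Cfap52 was at 9.23 and 9.54 against 8.33 and 7.89, a difference of -1.28 (SE 0.235, adjusted p = 0.264). In all 3 genes the difference was well above the gap between duplicates.

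Drc1, of the dynein regulatory complex, was at 13.81 and 12.10 against 11.43 and 11.31, a difference of -1.58 (SE 0.502, adjusted p = 0.426). Foxj1, the transcription factor that drives motile cilia, was higher, at 5.56 and 6.11 against 6.81 and 6.66, a difference of 0.90 (SE 0.253, adjusted p = 0.367). Of this list 7 genes were lower and 1 higher without overlap, beside 24.5% and 10.8% of all genes. At an unadjusted limma p below 0.05 with 2-fold, 4 were lower, beside 1.2% of all genes. The list was chosen with earlier results of these data known, so these counts are a description only. The list's lead over other genes depended on 1 array. Against Nanos2+/- replicate 2 alone its median was -0.19, against -0.21 for all genes, and the summed signal was 21682 and 10694 in Nanos2+/- and 6807 and 6241 in Nanos2-/-. Mesonephros and duct markers, whose epithelium can carry cilia, had overlapping sums of 14942 and 20473 against 15365 and 15886 over 12 measured genes, with Lhx1 at 7.55 and 9.45 against 9.11 and 8.72. The part of adjoining tissue in the cilium values was not tested beyond these sums.

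Genes whose symbol begins with Cfap, for cilia and flagella associated proteins, were gathered after their values were seen. Of 13 measured, 11 were lower and 2 higher, with a median of -0.35. Without overlap, 7 were lower, beside 24.5% of all genes. Cfap53 was at 7.28 and 6.36 in Nanos2+/- and at 4.97 and 5.21 in Nanos2-/-, a difference of -1.73 (SE 0.302, adjusted p = 0.261). Cfap57 differed by -1.18, from 8.23 and 6.75 to 6.47 and 6.16. Cfap69, at 0.12, was the highest of these genes.

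**Figure D4:**
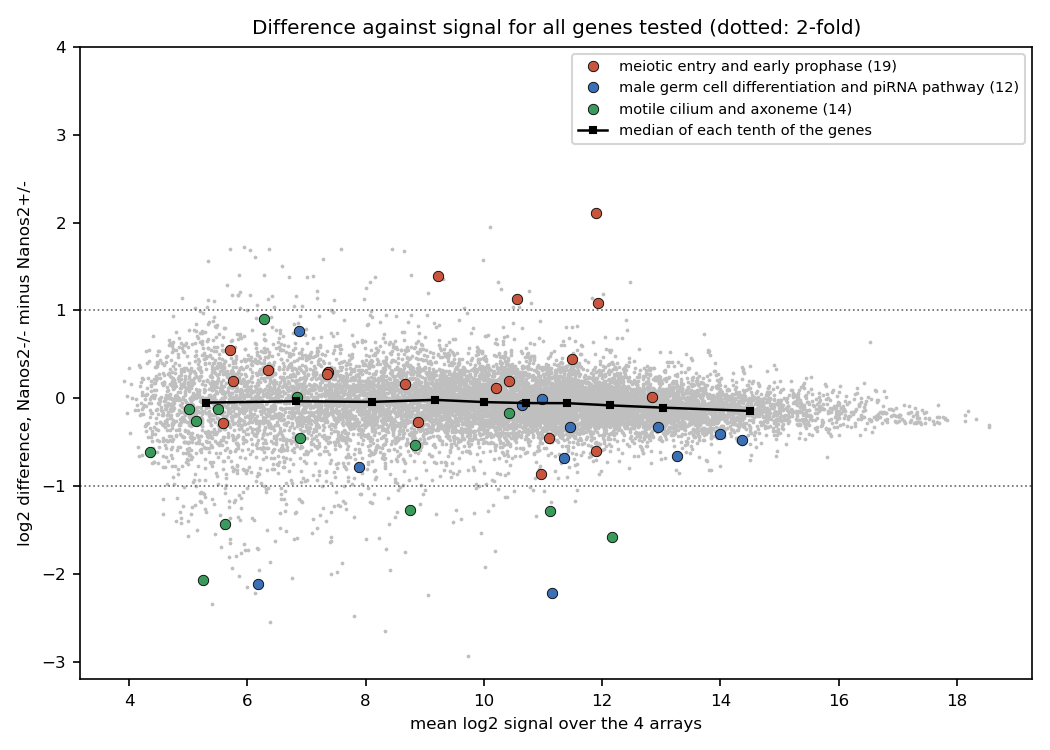
Log2 difference (Nanos2-/- minus Nanos2+/-, y axis) against the mean log2 signal over the 4 arrays (x axis) for 12541 genes (grey), with 3 lists coloured and the medians of 10 equal groups of genes ordered by signal in black. Stra8 at 2.11 and Dnmt3l at -2.22 lie beyond most genes of their level, and the black line falls to -0.15 for the brightest genes.

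Sertoli cell markers differed little. Over 19 measured of 22 genes the median was -0.08, against -0.07 for all genes. Without overlap, 1 was higher and 2 lower, beside 10.8% and 24.5% of all genes. Sox9, a transcription factor of Sertoli cells, was at 11.18 and 11.44 in Nanos2+/- and at 11.26 and 11.20 in Nanos2-/-. Amh, their secreted hormone, was at 11.36 and 11.82 against 11.42 and 11.40. Both genes were detected on all 4 arrays and overlapped between genotypes. Dmrt1, a transcription factor of Sertoli and germ cells, was the exception, at 7.44 and 7.32 against 8.20 and 9.07, a difference of 1.25 (SE 0.294, adjusted p = 0.288).

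Fetal Leydig cell markers had a median of -0.14, with 10 of 13 measured genes lower, beside 7769 of 12541 over all genes. Without overlap, 5 were lower and none higher, beside 24.5% and 10.8% of all genes. Cyp17a1, a steroidogenic enzyme, was at 14.97 and 15.12 in Nanos2+/- and at 14.93 and 14.62 in Nanos2-/-, a difference of -0.26 (SE 0.202, adjusted p = 0.788). Star (-0.21) and Cyp11a1 (-0.10), which start steroid synthesis, differed by about their standard errors or less. Peritubular and interstitial markers had a median of -0.11 over 20 genes. Without overlap, 7 were lower and none higher, beside 24.5% and 10.8% of all genes. Acta2, smooth muscle actin, was at 14.85 and 15.12 against 14.87 and 15. Leydig and peritubular medians were 0.01 each under quantile normalization, so their direction depended on the scaling.

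Endothelial markers had a median of -0.22 over 17 measured genes, 10 of them lower without overlap, beside 24.5% of all genes, and their per-array medians did not overlap (0.01 and 0.16 against -0.09 and -0.13). Vwf, the clotting factor of endothelium, was at 12.89 and 11.91 in Nanos2+/- and at 11.70 and 11.43 in Nanos2-/-, a difference of -0.83 (SE 0.317, adjusted p = 0.521). Plvap, of endothelial diaphragms, was at 11.20 and 11.39 against 10.77 and 10.69, a difference of -0.57 (SE 0.184, adjusted p = 0.432). Cdh5 and Cldn5, junction proteins of vessels, differed by -0.20 and -0.36, but a second probe of Cdh5 differed by 0.22. Pecam1, an adhesion molecule that germ cells also carry, went the other way, at 8.29 and 8.37 against 8.85 and 9.12, a difference of 0.66 (SE 0.239, adjusted p = 0.488). The summed signal of the list was 48865 and 50668 against 42044 and 39620.

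Markers of macrophages and other leukocytes had a median of -0.08, erythroid genes -0.08, ovarian somatic genes -0.05, coelomic and surface epithelium -0.16 and Schwann cells and neurons -0.17. Mesonephros and duct markers had a median of 0.10, which turned to -0.32 without Nanos2+/- replicate 1. Of 13 ovarian genes measured, 4 were higher and 5 lower without overlap, beside 10.8% and 24.5% of all genes. Gng13 (0.80) and Rspo1 (0.55) were among the higher and Fst (-0.58) and Lef1 (-0.54) among the lower. Gng13 was at 8.91 and 9.93 in Nanos2+/- and at 10.23 and 10.21 in Nanos2-/-, and Rspo1 at 13.12 and 13.92 against 13.99 and 14.15. For Gng13 and Rspo1 the Nanos2+/- duplicates lay farther apart than the nearer arrays of the genotypes. Rspo1 and Fst are both known from the pregranulosa programme. Foxd3, a neural crest factor also found in germ cells, was at 5.54 and 6.0 against 6.99 and 6.83, a difference of 1.13 (SE 0.226, adjusted p = 0.271). Msln of the mesothelium was higher by 0.88. Globin and leukocyte genes, which track blood in the dissection, had medians near that of all genes, but single genes differed. Hba-a1 was at 17.26 on both Nanos2+/- arrays against 17.07 and 16.88. The summed erythroid signal was 365451 and 370242 against 337524 and 299419, without overlap. Of 12 erythroid genes 3 were lower and 1 higher without overlap. Of 15 leukocyte genes these were 4 and 2, beside 24.5% and 10.8% of all genes. Laptm5 was lower by -0.52, while Ptprc was at 5.77 and 5.85 against 5.86 and 5.75.

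Cell cycle lists were close to the whole array. Mitosis genes had a median of -0.04, replication genes -0.12 and inhibitors of the cycle -0.06. Cdkn2a, which encodes the cycle inhibitors p16 and p19ARF, was at 8.67 and 7.60 in Nanos2+/- and at 7.20 and 7.07 in Nanos2-/-, a difference of -1.0 (SE 0.313, adjusted p = 0.416). Cdkn2b beside it in the genome differed by -0.43, while Cdkn1a (0.06) and Cdkn1c (0.06) overlapped. Cdk1, the mitotic kinase, was at 12.09 and 12.49 against 12.18 and 12.68. Apoptosis genes had a median of -0.08, with Pmaip1, a killer protein of the BCL2 family, at 11.40 and 12.64 against 12.73 and 12.88 and Casp9 lower by -0.61.

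The de novo DNA methyltransferases differed in direction on their brightest probes. Dnmt3a, a de novo methyltransferase, was at 12.01 and 11.41 in Nanos2+/- and at 10.71 and 10.90 in Nanos2-/-, a difference of -0.91 (SE 0.236, adjusted p = 0.329). Its other 2 probes differed by -0.33 and 0.04, both with overlapping arrays. Dnmt3b, the second such enzyme, was at 9.45 and 9.89 against 10.01 and 10.74, a difference of 0.71 (SE 0.273, adjusted p = 0.524). The maintenance enzyme Dnmt1 differed by -0.17 with overlap.

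Genes of retinoic acid and of other signalling pathways went in both directions. Cyp26b1, which breaks down retinoic acid in the fetal testis, was at 13.43 and 13.74 in Nanos2+/- and at 13.57 and 13.69 in Nanos2-/-, a difference of 0.04 (SE 0.201). Rarg, a retinoic acid receptor, was higher by 0.64 and by 0.67 on its second probe, and Crabp1, a carrier of retinoic acid, was lower by -0.57. Within Nodal and activin signalling (median -0.01 over 24 genes), Lefty1, a feedback inhibitor of Nodal, was at 7.17 and 10.10 against 9.72 and 10.25, so only Nanos2+/- replicate 1 stood apart. Lefty2 was at 9.71 and 9.72 against 10.09 and 9.97, a difference of 0.32. FGF, Wnt and Hedgehog genes had a median of 0.07. Spry4, a feedback inhibitor of FGF signalling, was higher by 0.85 without overlap, at low signals of 4.63 and 5.18 against 5.67 and 5.84. Sfrp2, a secreted Wnt antagonist, was also higher by 0.85, at 9.65 and 10.50 against 10.65 and 11.20. For Spry4 and Sfrp2 the Nanos2+/- duplicates lay farther apart than the nearer arrays of the genotypes. Ihh, a Hedgehog ligand, was detected on both arrays of Nanos2+/- and neither of Nanos2-/-, and was at least 2.62-fold lower.

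The CCR4-NOT and mRNA decay list, the machinery NANOS2 works through, had a median of -0.03 over 29 measured genes. Ddx6, a helicase of P-bodies, was the largest difference without overlap, at 8.83 and 9.28 against 8.35 and 8.11, a difference of -0.83 (SE 0.218, adjusted p = 0.335). Cnot2 (-0.04, and 0.23 on a second probe) overlapped and Cnot3 (-0.40) and Cnot4 (0.36) did not, with the other probes of Cnot4 at 0.33 and -0.50.

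Stress and interferon lists had medians of -0.01 and 0.02, with single genes far from them. Metallothioneins, which bind metals, were lower, Mt2 at 11.90 and 11.19 against 10.23 and 10.18, a difference of -1.34 (SE 0.248, adjusted p = 0.264), and Mt1 by -0.95. Ifnlr1, the receptor of type III interferons, was at 9.88 and 9.82 against 8.35 and 8.70, a difference of -1.32 (SE 0.198, adjusted p = 0.209). Oasl2, an interferon-induced gene, was at 9.59 and 10.34 against 10.58 and 11.43. Tjp3, a tight junction scaffold, was at 8.10 and 8.03 against 6.91 and 6.78, a difference of -1.22 (SE 0.183, adjusted p = 0.209). For Ifnlr1 and Tjp3 the genotypes lay well apart and the duplicates closer together, while the Nanos2+/- duplicates of Mt2 were farther apart.

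The lists of hypoxia and glycolysis, immediate early genes, imprinted genes, sterol synthesis, tight junctions and extracellular matrix had medians between -0.13 and -0.02. Egln3, an oxygen sensor, was at 14.48 in Nanos2+/- replicate 2 alone, beside 7.90 in replicate 1 and 7.96 and 8.55 in Nanos2-/-. Mitochondrial respiration genes had a median of -0.14, with 19 of 26 lower, and ribosomal protein genes were lower too, with 46 of 48 Rpl and 37 of 42 Rps genes below 0 and medians of -0.21 each. These are among the brightest genes, with a median signal of 16.62 for Rpl against 10.37 over all genes, and the brightest 10% of all genes had a median of -0.15. Among these brightest genes, Nanos2+/- replicate 2 was 0.40 above replicate 1. Under quantile normalization the medians were -0.03 for Rpl and -0.02 for Rps. Olfactory receptor genes, at a median signal of 5.24, had the highest family median, 0.19, with 52 of 68 higher, but -0.24 with normexp background correction. The dimmest 10% of genes stood at -0.05. Keratin genes had the lowest family median, -0.32 over 18 genes, with 12 lower, and 0.20 with normexp, where all genes stood at 0.72.

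Genes with steady duplicates, whose arrays did not overlap and whose duplicates lay within 1 on the log2 scale, numbered 4294, of which 31 were 2-fold or more higher and 78 lower. Eras, a Ras protein of embryonic stem cells, had the largest difference among the higher, at 4.80 and 5.37 in Nanos2+/- and 6.67 and 6.95 in Nanos2-/-, a difference of 1.73 (SE 0.234, adjusted p = 0.209). It was followed by the sialyltransferase St8sia3 (1.69), the coronin Coro2a (1.68), the slit diaphragm protein Nphs1 (1.68), Ppm1n (1.61), the homeobox gene Cphx1 (1.58), the phosphodiesterase Pde6b (1.40), osteocalcin Bglap (1.38), the homeobox factor Onecut1 (1.29) and Dmrt1. Cphx1, known from oocytes, was at 6.22 and 6.76 against 8.19 and 7.96 (adjusted p = 0.209). Most of these genes had low signals in Nanos2+/-.

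Among the lower, Lrrc18 led, followed by the urinary protein gene Mup3 (-2.05), the phosphatase Dusp26 (-1.74), Cfap53, the polarity gene Crb3 (-1.70), the decoy receptor Il1r2 (-1.63), the sperm head protein Fabp9 (-1.60), the testis cytochrome oxidase subunit Cox8c (-1.59), Fam160a1 (-1.58) and Csta2 (-1.57). Dusp26 was at 11.54 and 10.58 against 9.29 and 9.35 (SE 0.305, adjusted p = 0.261). Il1r2 was at 8.44 and 8.01 against 6.48 and 6.71 (SE 0.251, adjusted p = 0.209). In 134 of the 150 genes that were lower at an unadjusted p below 0.05 with 2-fold, Nanos2+/- replicate 1 was above replicate 2, and in 46 of the 55 higher genes it was below it. Over all genes replicate 1 was below replicate 2 for 10061 of 12541, a share close to that of the higher genes.

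Signals at background in 1 genotype give bounds only. For these, each array without detection was given the lowest signal of any detected probe on it, unless the probe itself was brighter. Higher in Nanos2-/- were Gja3, a gap junction protein, by at least 4.83-fold, Oxct2a, a ketone enzyme of male germ cells, by at least 3.90-fold, Gbp8 by at least 3.04-fold, Zhx2 by at least 2.66-fold and the soluble adenylyl cyclase Adcy10 by at least 2.38-fold. Lower beside Nanos2 were Oas1d by at least 11.1-fold, Syce1l, related to a synaptonemal complex protein, by at least 9.54-fold, Clca1 by at least 7.52-fold and Trim61 by at least 5.58-fold. These probes were kept through the genotype in which they were bright, so no p-value is given for them. The Nanos2+/- duplicates were far apart for Oas1d (8.33 and 5.85), Clca1 (8.66 and 4.40) and Trim61 (7.27 and 4.92).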

How the data were processed

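Per the labels and the file headers, 200 ng of total RNA per gonad sample was labelled with Cy3 and hybridised to Agilent whole mouse genome arrays, and the deposited files hold scanner intensities from Agilent Feature Extraction 9.5.3.1 with background already subtracted by the authors' software. The intensity of non-control spots without outlier flags was scaled to a common 50th percentile, floored at 5, log2-transformed and averaged per probe. Probes well above background on all 4 arrays were tested with limma 3.58.1 in R 4.3.3, with all 6 arrays sharing the spread, and p-values were adjusted by the Benjamini-Hochberg method over 25266 probes. Arrays give no read depth, and 2 arrays per genotype limit the precision. The fit was also run on simulated arrays with independent noise. These held no slide or replicate effect, so that run cannot show how the fit behaves under such effects. Probe names came from RefSeq accessions matched to the mouse gene table (23374 of 41174 probes, 16535 genes), and each gene took its brightest probe.

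Named genes were Nanos2, every called probe, the 10 largest differences each way among genes with steady duplicates and no overlap, the 5 largest bounds each way, and from each list its first 2 measured genes with up to 4 more without overlap, beside 9 genes of the study. Sohlh2, Sycp3, Syce2, Rec8, Hormad1, Mael, Piwil2, Asz1, Nanos3, Cfap57, Cfap69 and Egln3 fall outside this rule and were chosen after their values were seen. Ihh, a list gene with only a bound, falls outside it too. Lists (11 of cell types, 22 of functions) and members were chosen with earlier results of these data known. Symbols not matched to a probe were not analysed here. Alternatives covered scaling, background, floor, detection filter, outlier spots, the deposited value table, replicate block, arrays in the fit, prior variance, the methods' t-test, probes per gene and leaving out each array. Normexp used the median signal, since the files hold no mean signal column. The Feature Extraction version given in the study's methods differs from the one in the file headers.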

Additional observations from a re-analysis of the deposited data

How the results depend on the processing

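Probe counts moved most. The number of probes passing the adjusted test, 1, was 0 with the 75th percentile and with normexp. It was also 0 with the methods' t-test after Benjamini-Hochberg adjustment, which listed 17 higher and 51 lower at unadjusted p. It was 2 with no filter and 3 with only the 4 arrays. With detection in either genotype it was 20, of which 13 were dim on both Nanos2-/- arrays and 5 on both Nanos2+/- arrays. This filter keeps such probes through the genotype in which they are bright. Its counts, here and below, therefore do not measure the genotype effect. With the replicate number as a replicate block, 11 passed. The labels do not explain this pairing, which changed the call of Csta2, Eras, Lrrc18 and Mup3 among the named genes. Over the probes tested, the difference of replicate 1 from replicate 2 correlated at 0.40 between the genotypes. The main fit held no replicate block, and why the replicates moved together was not tested. At an unadjusted p below 0.05 with 2-fold, 107 higher and 217 lower became 397 and 7 with normexp, 222 and 363 with detection in either genotype and, for the higher, 188 with no filter. Probes apart by 2-fold without overlap, 106 and 226, became 1991 and 7, 244 and 379, and 425 and 607 under the same 3 settings. With normexp all genes stood 0.72 higher in Nanos2-/-, and the meiotic list (0.53), the male germ cell list (0.53), the pluripotency list (0.83) and Tdrd1 (0.37) moved with them. The cause was not tested. Leaving out each array in turn gave 0 to 19 probes passing, 114 to 297 higher and 183 to 424 lower at unadjusted p, and 106 to 332 higher and 214 to 456 lower without overlap. Over the same arrays the cilium median ran from -0.66 to -0.19, the male germ cell median from -0.55 to -0.32 and the pluripotency median from -0.18 to 0.71. Dppa3 ran from -0.30 to 0.78 and Dppa5a from -0.010 to 1.28. The other scalings, floors and filters kept the direction of the meiotic, male germ cell, cilium and pluripotency medians. Genotype and slide coincide, each arm has 2 arrays, and dim probes give only bounds.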

Other observations

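The genes given here lie outside the lists, were picked after their values were seen, and did not pass the adjusted test, so they describe no group. Ldhc, the sperm lactate dehydrogenase, was at 11.34 and 10.08 in Nanos2+/- and at 9.25 and 9.11 in Nanos2-/-, a difference of -1.53 (SE 0.356). Gtf2a1l, a germ cell form of TFIIA, went from 8.87 and 7.55 to 6.70 and 6.44, and Tnp1, a transition protein of spermatids, from 6.88 and 6.12 to 5.57 and 5.40. Tnp2, the second transition protein, differed in the other direction, from 5.53 and 4.18 to 7.56 and 5.55.

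Fmr1nb was at 8.58 and 9.82 against 10.43 and 11.10, Aurkc, a meiotic Aurora kinase, at 9.67 and 10.63 against 11.30 and 11.44, and Ooep, an oocyte protein, at 9.49 and 10.65 against 11.05 and 11.16. In each of these 3 genes Nanos2+/- replicate 1 was the lowest array.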
